A study of Mus musculus with 52 samples.

Results

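Mutant clones of ciliated mouse kidney cells were compared with control clones of the same cells, and the genes described are those whose mean in each of 3 mutant clones lay on one side of the means of all 4 control clones. Of 11950 genes that passed the low-count filter, among 24421 symbols in the tables, 233 had such separated clone means: 118 lay above every control clone and 115 lay below. The comparison used 28 of the 52 RNA-seq libraries of the series. The cells were IMCD3, an established line from the mouse inner medullary collecting duct, in a derivative that carries a cilium-targeted APEX enzyme. The 3 mutant clones (12 libraries) were labelled Wdr34 clone 1, Wdr34 clone 3 and Wdr60, and the 4 control clones (16 libraries) D8, H12, A4 and G7.

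Mutants had been made with the cytosine base editor BE4-Gam and a guide. The study describes the alleles Wdr34 p.Arg183Trp, Wdr34 p.Gly394Ser, whose line carries a further heterozygous missense change beside the intended one, and Wdr60 p.Ala911Val, whose line carries a further heterozygous synonymous change. The labels do not tell which of the Wdr34 clones carries which allele, so both are called by their labels. Controls had received the same editor with an empty guide vector and were also grown from single cells. Each line is thus 1 clone, and its 4 libraries were technical repeats by the study's account, so that the p-values below measure the spread between libraries and are too small as a test over clones. The ciliated state was taken from the labels, which give 10% serum for every library, whereas the study's methods describe serum starvation of the ciliated cells.

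Wdr34 and Wdr60 encode the intermediate chains of cytoplasmic dynein-2, the motor that carries intraflagellar transport trains from the tip of the cilium back to its base. The motor also contains a heavy chain, a light intermediate chain and several light chains. In kidney epithelium the primary cilium houses receptors and channels, and its transport machinery is needed for Hedgehog signal processing. The editing sites are shown because they define the mutant group. In each line, capitals at the end mark the PAM next to the protospacer, and a capital inside marks the target base where the study marks one.
Wdr60 p.Ala911Val: cctgCagtgttcctggtccAGG
Wdr34 p.Arg183Trp: tggtCggtgagtgagagctTGG
Wdr34 p.Gly394Ser: ggggccaccatggggagagaAGG
The first site matched exon 21 of Wdr60 on the gene's strand, at chr12:116211807-116211828 of GRCm38. The third matched exon 7 of Wdr34 on the opposite strand, at chr2:30032434-30032456. The second was not matched to a Wdr34 transcript here, and no position is given for it.

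Library totals ran from 15493164 to 21100046 counts in mutants and from 14816218 to 28084979 in controls. Within a clone, the log2 CPM (CPM, counts scaled to the library's total, here with TMM factors) of 2 libraries correlated at 0.963 or more. The lowest values were in the Wdr60 clone, where libraries 3 and 4 stood apart from libraries 1 and 2. Library 4 of G7 was the deepest and stood apart from the other G7 libraries, as did library 1 of A4 within its clone. Of 18 collecting duct and distal markers, Aqp2, Aqp3, Avpr2 and Tfap2b did not exceed 1 CPM in any ciliated library, so the water channels that define principal cells were at or near 0. The summed level of that list was 2271 to 4838 CPM in mutant libraries and 2027 to 5395 in controls. Proximal tubule markers summed to 15.9 to 81.4 CPM in mutants and 16.8 to 555 in controls, and blood markers to 213 to 310 and 131 to 315. Of the 6 blood markers, Ptprc, Cd3e, Lyz2 and Tyrobp did not exceed 1 CPM in any ciliated library. The blood sums thus came almost wholly from Cd68 and Csf1r and do not stand for the list. Likewise 5 of the 7 proximal tubule markers did not exceed 1 CPM. Endothelial markers summed to at most 6.78 CPM and fibroblast markers to at most 42.3 CPM, and no marker gene of any list had separated clone means.

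Neither targeted gene was lost at the RNA level in the mutant group. Wdr34 (chr2:30031551-30048879 of GRCm38, as all positions below) ran from 20.1 through a median of 42.9 to 62.2 CPM in the mutant libraries and from 26.8 through 43.0 to 50.6 CPM in the controls. Those ranges overlapped, and 1 mutant clone stood low: Wdr34 clone 3 had 22.3 ± 2.08 CPM (SD, n = 4 libraries), against 47.1 in Wdr34 clone 1, 50.8 in the Wdr60 clone, and 32.1 to 45 in the control clone means. The fitted log2 fold change was -0.04 ± 0.15 (SE), with an edgeR adjusted p of 0.913, and it was 0.24 without Wdr34 clone 3. The gene lies on chromosome 2, where the median difference of Wdr34 clone 3 from the controls over all tested genes was -0.37 in log2 CPM. The part of the whole chromosome in the low Wdr34 level of that clone was not tested. Wdr60 (chr12:116206261-116263046) was itself among the separated genes below, by the narrow gap of 0.01 in log2 CPM. Its libraries ran from 18.8 through 21.2 to 24.0 CPM in mutants and from 21.2 through 24.3 to 28.9 CPM in controls, which overlapped. The clone means were 22.4, 20.9 and 21.0 CPM in the mutants and 26.3, 24.9, 25 and 22.6 in the controls, a log2 fold change of -0.20 ± 0.06. The Wdr60 clone did not stand apart from the other mutant clones, and the separation was lost under 9 of 13 other settings, RLE scaling among them.

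The genes were chosen by the contrast itself, so their differences in ciliated cells are given as a description and carry no weight as a test. Most separations were small. The median log2 fold change was 0.36 among the 118 genes above and -0.27 among the 115 genes below, while over all 11950 genes it was -0.01. The gap between the nearest mutant and control clone means was under 0.1 in log2 CPM for 76 genes above and 87 below, and it reached 1 for 2 genes in each direction. Separated genes above were 0.987% of all tested genes and those below were 0.962%. At the edges of the rule, Chmp6 and Fhit lay just above with gaps of 0.000425 and 0.000445, and Scrib and Trip13 just below with gaps of 0.000309 and 0.000531. Jmjd4 and Rb1cc1 missed the upper side with gaps of -0.00157 and -0.00364, and Lmf1 and Eps15l1 missed the lower side with -0.000864 and -0.00105.

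Called genes were those with an edgeR adjusted p under 0.05 and an absolute log2 fold change of at least 1. There were 50 called higher (0.418% of tested genes) and 27 called lower (0.226%). Of these 77 genes, 57 did not separate, because the 3 mutant clone means did not all lie beyond the control clone means on one side. The other 20 were both called and separated, 16 above and 4 below. With no fold limit, 66 of the 118 genes above and 65 of the 115 below had an adjusted p under 0.05, where 1.58% of all tested genes did so with a positive and 1.59% with a negative change. These shares rest on the same contrast as the choice of genes, and nothing is read from them. The calls depend on which libraries and clones enter: without any 1 library number 17 to 24 genes were called higher and 5 to 7 lower, without control G7 146 and 197, and on counts summed per clone none was (148 of 13243 genes had an unadjusted p under 0.05 there, and DESeq2 on libraries called 66 higher and 63 lower).

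Ppp1r14c (chr10:3365974-3464978), an inhibitor of protein phosphatase 1, ran from 2.55 through a median of 3.53 to 4.29 CPM in the 12 mutant libraries and from 0 through 0.173 to 2.01 CPM in the 16 controls. No mutant library fell within the control range, and the highest controls were all of clone H12. The clone means were 3.4 ± 0.459 CPM (SD, n = 3) against 0.43 ± 0.582 (n = 4), a log2 fold change of 2.95 ± 0.53. Ppp1r14c passed the low-count filter through the mutant libraries, where it is high, so its call is no support for the difference. Adcy1 (chr11:7063433-7178506), an adenylyl cyclase stimulated by calcium and calmodulin, ran from 62.0 through 80.3 to 102 CPM in mutants and from 0.824 through 17.2 to 53.8 CPM in controls. All 12 mutant libraries were again above all controls, but the controls differed widely among themselves, from a mean of 0.963 CPM in G7 to 51.4 in H12. Its log2 fold change was 1.82 ± 0.47 (adjusted p = 0.0311, edgeR), and its call was lost without any 1 library number. Kcnh2 (chr5:24319589-24351684), the potassium channel that carries the rapid delayed rectifier current of the heart, ran from 8.85 through 18.2 to 44.4 CPM in mutants and from 0.143 through 2.99 to 9.34 CPM in controls. Its highest mutant clone was Wdr60 at 35.2 CPM, and its log2 fold change was 2.54 ± 0.45.

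**Figure D1:**
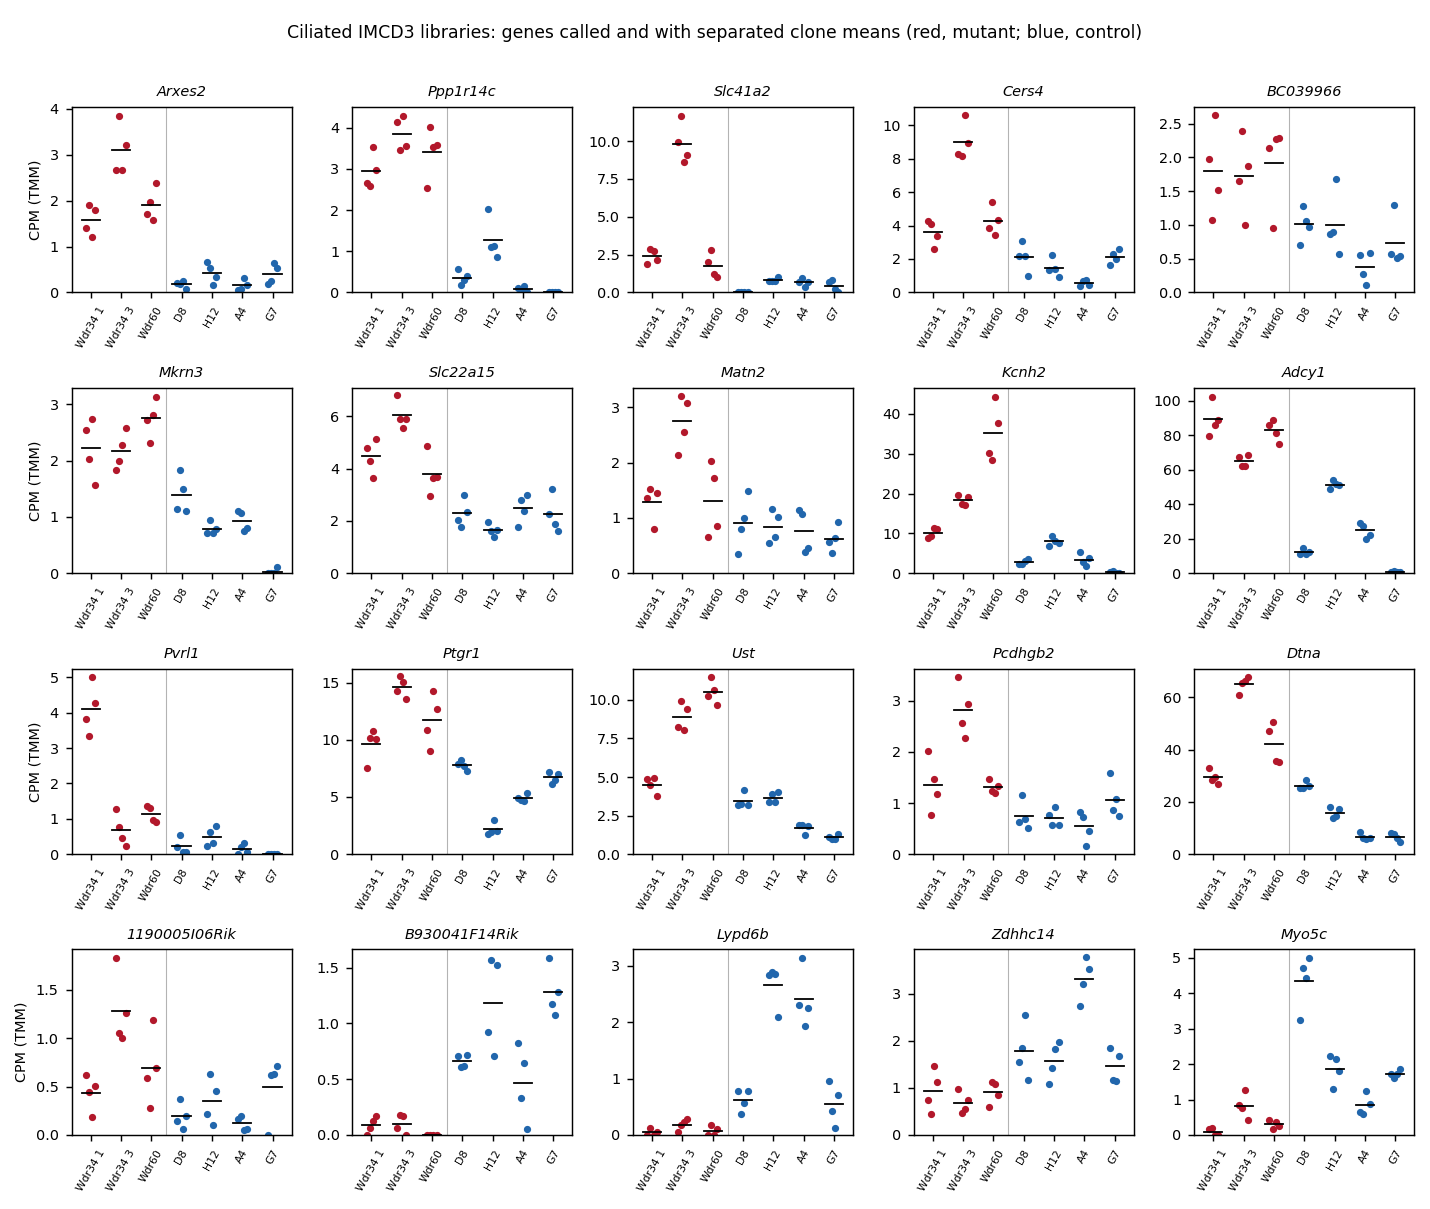
CPM (TMM) of each library for the 20 genes both called and separated, in panels ordered by gap within each direction; points are libraries, black bars clone means, red the 3 mutant clones and blue the 4 controls. Arxes2 and Ppp1r14c show no overlap of libraries, whereas BC039966 and Matn2 do overlap, and Lypd6b and B930041F14Rik are near 0 in every mutant clone. The choice was made on the log2 scale, and on this CPM scale the mean of Wdr34 clone 1 for 1190005I06Rik lies below that of control G7.

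Arxes2 had the widest gap of all, 1.76 in log2 CPM. This gene, found on the X chromosome at chrX:135993820-135995359 and named for its expression in adipocytes, ran from 1.22 through a median of 1.94 to 3.85 CPM in mutants and from 0.0548 through 0.23 to 0.653 CPM in controls. The lowest mutant library lay above the highest control, and the raw counts behind these values were 20 to 69 in mutants and 1 to 15 in controls. The log2 fold change was 2.88 ± 0.29. Arxes2 passed the low-count filter through the mutant libraries, where it is high, so its call is no support for the difference. Its near-identical neighbour Arxes1 was too low to be tested, with clone means of 0.606 to 0.671 CPM in mutants and 0.0467 to 0.174 in controls. Reads of these copies may have been split in counting, so the values of either are uncertain. Arxes1 was looked at after its values were known.

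Slc41a2 (chr10:83230848-83338037), a magnesium transporter, ran from 0.995 through 2.78 to 11.7 CPM in mutants and from 0 through 0.695 to 1.02 CPM in controls. A single clone, Wdr34 clone 3, held the high values with a mean of 9.82 CPM, and the other mutant means were 2.40 and 1.77. Its log2 fold change was 3.23 ± 0.53, the largest among the separated genes above. Slc22a15, of the organic ion transporter family, had clone means of 3.77 to 6.04 CPM in mutants and 1.65 to 2.48 in controls. Cers4 (chr8:4492818-4529603), a ceramide synthase, had clone means of 3.6, 8.99 and 4.25 CPM in mutants and 0.567 to 2.14 in controls, a log2 fold change of 1.83 ± 0.28. Ptgr1, a prostaglandin reductase, had 9.63 to 14.6 CPM in mutants and 2.18 to 7.76 in controls. In every one of these genes 1 or more mutant libraries overlapped the controls, although the clone means did not.

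Ust (chr10:8204753-8518825), a sulfotransferase of chondroitin and dermatan sulfate chains, ran from 3.76 through 8.83 to 11.5 CPM in mutants and from 0.99 through 2.52 to 4.17 in controls, a log2 fold change of 1.68 ± 0.24. Wdr34 clone 1 was the lowest mutant at 4.51 CPM and H12 the highest control at 3.66. Matn2, a matrilin of the extracellular matrix, had clone means of 1.78 ± 0.837 CPM (SD, n = 3) in mutants and 0.786 ± 0.122 (n = 4) in controls, and its libraries overlapped. Dtna, a dystrobrevin of the dystrophin-associated complex, had 29.3 to 65.2 CPM against 6.53 to 26.2. Pvrl1, which encodes nectin-1 of adherens junctions, was highest in Wdr34 clone 1 at 4.11 CPM and reached only 0.679 in Wdr34 clone 3, close to the 0.486 of control H12. Pcdhgb2, a gamma protocadherin gene that shares its constant exons with its neighbours in the cluster, had 1.31 to 2.82 against 0.545 to 1.07 CPM, and its counts are uncertain for that reason. The remaining called genes above were Mkrn3, an imprinted ring finger gene, the long non-coding BC039966 and the uncharacterised 1190005I06Rik, the highest library of which was Mkrn3 in library 4 of the Wdr60 clone at 3.135 CPM. Like Adcy1, Mkrn3 and 1190005I06Rik lost their call without any 1 library number, and BC039966 kept it without 2 of the 4. Of 17 settings in which 1190005I06Rik was tested, 4 called it. It separated on the log2 scale, but on the CPM scale Wdr34 clone 1 at 0.438 was below control G7 at 0.491.

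Only 4 genes were called and separated below, and all were low. B930041F14Rik (chr4:155694342-155696485) ran from 0 through a median of 0.0304 to 0.175 CPM in mutants, which is at most 3 counts in a library, and from 0.0577 through 0.768 to 1.59 CPM in controls. Lypd6b (chr2:49787340-49948849), a protein of the Ly6 and neurotoxin domain family, ran from 0 through 0.0802 to 0.28 CPM in mutants and from 0.127 through 1.45 to 3.13 CPM in controls. Both were close to absent in the mutant clones at this depth, and both varied among controls, Lypd6b from 0.556 CPM in G7 to 2.66 in H12. Their log2 fold changes were -3.73 ± 0.49 and -3.86 ± 0.53. Both genes passed the low-count filter through the control libraries, where they are high, so their calls are no support for the difference. Zdhhc14, a palmitoyltransferase, had clone means of 0.686 to 0.94 CPM in mutants and 1.46 to 3.31 in controls. Myo5c, an unconventional myosin of secretory granule transport, had 0.0897, 0.828 and 0.303 CPM in mutants and 0.841 to 4.35 in controls, so that Wdr34 clone 3 and control A4 almost touched.

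Other genes below were not called but had no overlap of libraries, or were among the 8 widest gaps. Rps6ka2 (chr17:7088971-7303315), a ribosomal S6 kinase of the MAP kinase pathway, ran from 10.7 through 13.3 to 15.8 CPM in mutants and from 18.1 through 20.8 to 25.5 CPM in controls. All mutant libraries lay below all controls, and the spread between clones was small in both groups, at 13.1 ± 1.45 CPM (SD, n = 3) and 21.1 ± 0.91 (n = 4). Its log2 fold change was -0.69 ± 0.07 (adjusted p = 5.4e-07, edgeR). Dmxl2 (chr9:54365158-54501866), a rabconnectin that takes part in acidification of vesicles, ran from 12.5 through 17.3 to 24.4 CPM against 24.8 through 30.9 to 36.9 CPM, a log2 fold change of -0.77 ± 0.09. Arid3b, a DNA-binding protein of the ARID family, had clone means of 1.48 to 2.34 CPM in mutants and 2.77 to 5.55 in controls. Sh3bp5, an inhibitor of BTK signalling, had 3.23 ± 0.128 CPM in mutants and 4.41 ± 0.303 in controls, and its libraries overlapped. Praf2, a small membrane protein of the early secretory pathway, lay near 0 in Wdr34 clone 3, with 0.414 CPM, while Wdr34 clone 1 and the Wdr60 clone had 16.8 and 17.7 and the controls 21.3 to 25.3. Its fitted log2 fold change of -1.0 ± 0.46 therefore rests largely on 1 clone and had an adjusted p of 0.225. Over all tested genes, 5 (0.0418%) had every mutant library above every control, namely Arxes2, Ppp1r14c, Adcy1, Atxn7l3b and Ss18. Likewise 5 (0.0418%) had every mutant library below, namely Rps6ka2, Dmxl2, Praf2, Arid3b and Afap1l2.

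**Figure D2:**
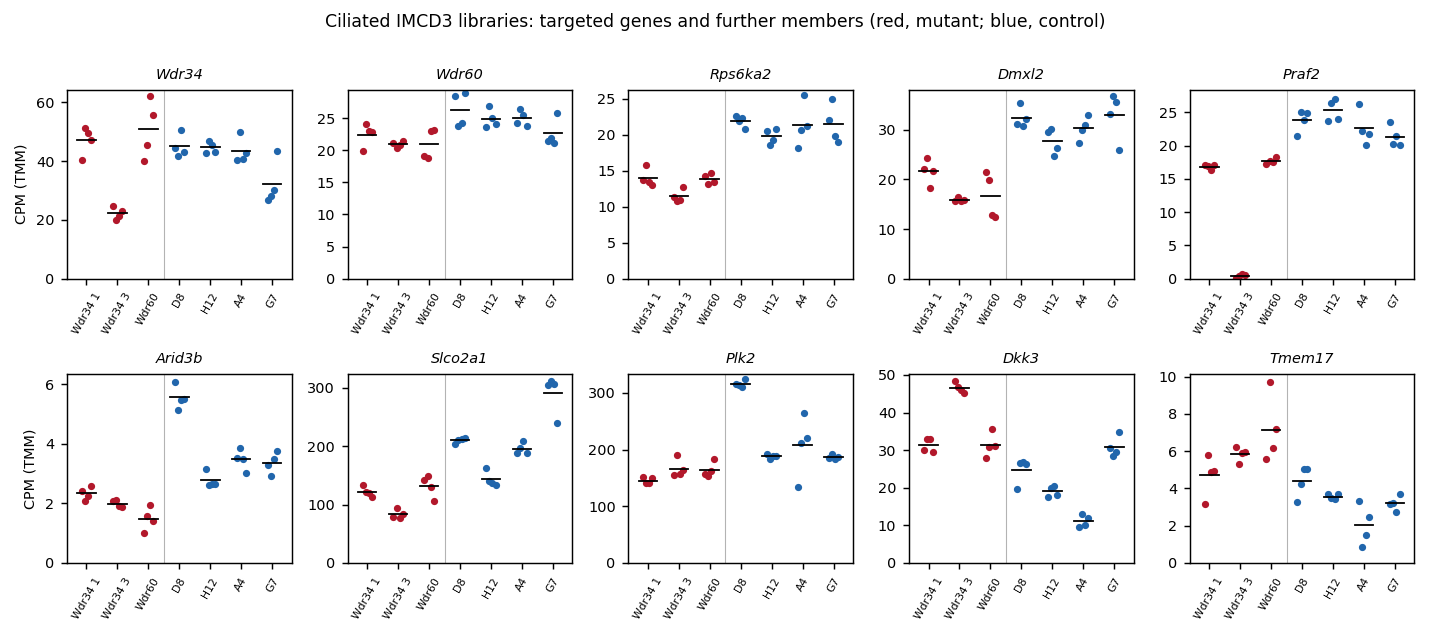
CPM (TMM) of each library for the targeted genes Wdr34 and Wdr60 and 8 further separated genes, drawn as in the previous panels with red mutant and blue control libraries and bars at clone means. Rps6ka2 and Dmxl2 show 2 groups that do not overlap, Praf2 is near 0 in Wdr34 clone 3, and Wdr34 itself is lowest in that clone.

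The promoters of 4 of those genes are shown because every library of the mutants lay on one side of the controls, 2 in each direction with the widest gaps. The windows come from RefSeq on GRCm38.p6 and run from 250 bases before the start of transcription to 50 after. Promoters were found for 9 of the 10 genes. Capitals mark matches on either strand to TATAAA (the TATA box), CCAAT (the box of that name), GGGCGG (the GC box), CACGTG (an E-box), TGACGTCA (the cAMP response element), GACCACCCA (the GLI motif) and GTTGCC (a half-site of RFX factors). The windows are chrX:135993570-135993869 (plus strand) for Arxes2, chr10:3365900-3366199 (plus) for Ppp1r14c, chr17:7169865-7170164 (plus) for Rps6ka2, which is a RefSeq start inside the gene span given above, and chr9:54501577-54501876 (minus) for Dmxl2. No marked match overlapped another in these windows.
Arxes2: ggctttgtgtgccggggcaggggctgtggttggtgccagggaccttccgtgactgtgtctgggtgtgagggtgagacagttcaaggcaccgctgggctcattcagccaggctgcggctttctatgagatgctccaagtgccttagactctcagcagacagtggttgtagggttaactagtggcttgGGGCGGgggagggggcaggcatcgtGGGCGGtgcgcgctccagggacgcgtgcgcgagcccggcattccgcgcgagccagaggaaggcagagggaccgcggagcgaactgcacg
Ppp1r14c: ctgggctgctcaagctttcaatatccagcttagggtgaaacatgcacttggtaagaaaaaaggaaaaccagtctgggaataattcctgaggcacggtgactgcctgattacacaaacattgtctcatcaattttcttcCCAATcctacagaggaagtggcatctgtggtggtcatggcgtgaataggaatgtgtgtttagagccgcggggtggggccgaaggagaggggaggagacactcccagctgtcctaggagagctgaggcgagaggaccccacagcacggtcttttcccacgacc
Rps6ka2: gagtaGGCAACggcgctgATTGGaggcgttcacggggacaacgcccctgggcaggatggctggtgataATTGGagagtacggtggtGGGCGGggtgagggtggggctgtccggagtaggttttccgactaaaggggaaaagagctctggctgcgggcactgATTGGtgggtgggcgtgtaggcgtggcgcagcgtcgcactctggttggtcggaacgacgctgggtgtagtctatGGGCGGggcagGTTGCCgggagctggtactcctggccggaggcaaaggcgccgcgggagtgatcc
Dmxl2: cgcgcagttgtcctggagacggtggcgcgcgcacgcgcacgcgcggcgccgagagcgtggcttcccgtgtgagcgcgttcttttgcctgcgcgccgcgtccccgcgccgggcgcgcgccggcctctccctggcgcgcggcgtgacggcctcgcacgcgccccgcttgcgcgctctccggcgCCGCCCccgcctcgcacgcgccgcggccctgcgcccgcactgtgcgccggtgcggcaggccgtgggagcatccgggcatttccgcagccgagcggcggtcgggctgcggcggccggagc
Of the 9 promoters, 7 held GGGCGG (35.7% of all 32851 RefSeq promoter windows) and 5 held CCAAT (37.4%). GTTGCC was in 1 of the 9, that of Rps6ka2 (12.5% of all windows), and CACGTG in 1, that of Adcy1 (7.15%). The letters TATAAA (13.6% of all windows), TGACGTCA (1.79%) and GACCACCCA (0.253%) were in none of them. The windows thus differ in their letters, and base composition ran from 52% G and C in Ppp1r14c to 80.7% in Dmxl2.

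Over all tested genes, 3.17% passed the adjusted test of edgeR in either direction and 1.95% separated. DESeq2 passed 318 genes with a higher and 374 with a lower value in mutants at the same adjusted limit. Among 11 dynein-2 subunits tested, 1 passed (9.09%), Wdr60, and the log2 fold changes ran from -0.23 to 0.21. None of 7 IFT-A, 17 IFT-B and 13 BBSome genes passed in edgeR or in DESeq2, while 2, 1 and 2 of them had an unadjusted edgeR p under 0.05. None of 12 Hedgehog pathway genes passed in either tool, with 3 under an unadjusted p of 0.05. The share of all tested genes under that unadjusted p is not given here, so nothing is read from the unadjusted counts of these lists. In the transition zone list of 23 genes 2 passed (8.7%): Tmem17, a component of the MKS module at the ciliary base, separated above with clone means of 4.70, 5.84 and 7.15 CPM in mutants and 2.05 to 4.39 in controls, and Dcdc2a was called lower but did not separate. Median log2 fold changes of these lists lay between -0.11 and 0.03, against -0.01 over all genes.

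Of 64 genes of Golgi coats, golgins and vesicle traffic, 3 separated (4.69%, where 1.95% of all tested genes did): Gorab above, and Sec23b, a COPII coat subunit, and Zdhhc14 below. Rab6b, a Rab GTPase of Golgi traffic, was called lower in that list without separating, with a log2 fold change of -1.76 ± 0.36, and had -3.19 in non-ciliated cells. Sec23b had clone means of 112 to 120 CPM in mutants and 125 to 136 in controls, a log2 fold change of -0.18 ± 0.05. Gorab had a gap of only 0.05 in log2 CPM and a log2 fold change of 0.16 ± 0.07 (adjusted p = 0.18, edgeR). Separation held under 9 of 14 settings for Gorab, 12 for Sec23b and 14 for Zdhhc14, the main setting included. Gorab and Sec23b both lost it with the chromosome centring described below. Of 54 actin and myosin genes only Myo5c separated, and of 37 collagen and matrix genes only Matn2, although 5 of those 37 (13.5%) were called higher, where 0.418% of all tested genes were. In the Wnt list of 41 genes, Dkk3, a secreted Dickkopf family member, lay above with 31.3 to 46.6 CPM in mutants and 11.1 to 30.8 in controls, and Scrib, a polarity scaffold, lay below by the small gap given above. In the Notch list of 19 genes, Hey1, a target of Notch signalling, lay above on the log2 scale, but on the CPM scale Wdr34 clone 1 at 0.611 was below control D8 at 0.615. Plk2, a polo-like kinase listed with p53 targets, lay below with 145 to 167 CPM against 187 to 316. No gene separated among those listed for the cell cycle (47 tested), sterol synthesis (28), glycolysis and hypoxia (25), immediate early response (27), interferon (29), ER stress (30), YAP and SRF targets (22), cytosolic ribosomal proteins (75) or the proteasome (31). Genes of like function outside these lists, such as Trip13, did separate. Immediate early genes had a median log2 fold change of -0.53 with none of 27 passing in edgeR, 9 under an unadjusted p of 0.05 and 4 passing in DESeq2. Over all genes DESeq2 passed 318 higher and 374 lower. No share of all genes is given for the unadjusted p, so nothing is read from these counts.

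Slco2a1, the prostaglandin transporter, ran from 76.5 through 116 to 148 CPM in mutants and from 134 through 207 to 312 in controls, a log2 fold change of -0.91 ± 0.14. Malat1, an abundant nuclear long non-coding RNA, had a log2 fold change of -0.58 ± 0.13 with an edgeR adjusted p of 0.00954. Tgfb3, a ligand of the TGF-beta family, had 0.89 ± 0.15, and Paqr7, a membrane progestin receptor, had 0.98 ± 0.13. Pard6g, a PAR6 polarity protein, had 0.91 ± 0.11. Malat1, Tgfb3, Paqr7 and Pard6g were picked after their values had been seen. All 4 kept their separation under every one of 13 other settings, as did 31 of the 118 genes above and 16 of the 115 below in all.

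**Figure D3:**
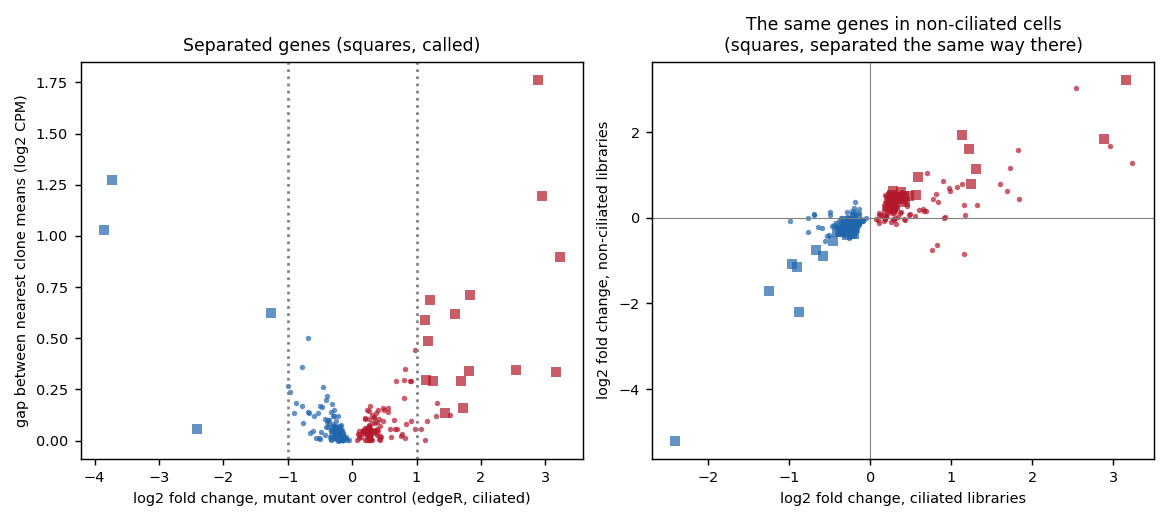
Left, gap between the nearest mutant and control clone means (log2 CPM) against the log2 fold change in ciliated libraries for the 233 separated genes, with called genes as squares and dotted lines at a log2 fold change of 1 in size. Right, the log2 fold change in non-ciliated against ciliated libraries for the same genes, with squares where clone means separated the same way; most points lie in the same-sign quadrants and near the origin.

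The non-ciliated libraries were not used to choose the genes. They comprised 2 mutant clones (8 libraries, labelled Wdr34 and Wdr60) and 4 control clones (16 libraries). Of the 114 genes above that were tested there, 32 (28.1%) also lay above all non-ciliated controls in both mutant clones, none lay below, and 44 had an adjusted p under 0.05 with the same sign. Among all 11709 genes tested in both states, 6.89% lay above and 7.11% had such a p with a positive change. Of the 112 genes below that were tested, 23 (20.5%) lay below again, 2 lay above, and 23 had an adjusted p under 0.05 with the same sign and 1 with the opposite sign, against 5.83% and 7.62% of all genes. Without chromosomes 1 and 5 the shares were 15.5% of 71 genes above (5.65% of all such genes) and 20.5% of 112 below (6.35%). The share below could not change and is no check, since none of the genes below lay on chromosomes 1 or 5. The rules are not equally strict, since 2 mutant clones had to lie apart there and 3 in ciliated cells.

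Genes that lay apart in both states and were also called in non-ciliated cells were Arxes2, BC039966, Pvrl1 and Fhit above, and Zdhhc14, Myo5c, Arid3b, Cercam and Slco2a1 below. They were 4 of the 114 genes above and 5 of the 112 below, against 0.179% and 0.965% of all genes tested in both states that lay apart and were called there in the same direction. Myo5c had a log2 fold change of -5.20 ± 0.89 there, with 0 and 0.134 CPM in the mutant clones and 0.443 to 7.57 in the controls. Pvrl1 had 3.22 ± 0.48, with 6.21 and 2.25 CPM against 0.0294 to 0.934. For Arxes2 the mutant clones had 3.12 and 2.71 CPM, but 1 control, labelled AB, had 2.25 while the others had 0.0903 to 0.75. Slco2a1 had -1.15 ± 0.20, with 100 and 65.0 CPM against 103 to 261. Kcnh2 had 3.03 ± 0.76, but only the Wdr60 clone stood high, at 23.4 CPM, and Adcy1 had 35.0 and 32.9 CPM against 33.0 in control AB. The fitted log2 fold change was lower in ciliated than in non-ciliated cells by 0.77 for Rps6ka2. Among the named separated genes, the sign was opposite for Rps6ka2, Wdr60, Dkk3, Hey1, Plk2, Trip13 and Gorab. Because the ciliated values chose these genes, such differences are a description with no test. Rps6ka2 had 0.09 ± 0.09 in non-ciliated cells, where its mutant clones at 47.0 and 54.0 CPM lay within the control range of 41.5 to 56.4.

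The labels do not say whether the non-ciliated libraries came from the same lines, so they cannot be taken as independent clones. By the study's account, the Wdr34 p.Gly394Ser line was made too late to be among them. Across 20 chromosomes, the median difference of a clone from its state's controls correlated at 0.94 between the Wdr60 clones of both states and at 0.89 between Wdr34 clone 1 and the non-ciliated Wdr34 clone. Controls showed like pairs, at 0.92 for D8 and control 3, 0.89 for G7 and control 2, 0.79 for H12 and control AB and 0.63 for A4 and control 1. Values across genotypes came close to the last of these, at 0.60 for the ciliated Wdr60 clone and control AB and 0.53 for H12 and the non-ciliated Wdr60 clone. Wdr34 clone 3 had no such partner, with 0.27 at most. These are descriptions over chromosomes that share libraries and scaling.

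The separated genes were unevenly placed along the genome. Chromosome 5 held 25 of the 118 genes above (3.21% of its 779 tested genes), chromosome 1 held 18 (2.73% of 659) and chromosome 18 held 13 (4.09% of 318), and none of the genes below lay on chromosomes 1 or 5. Chromosome 2 held 22 of the 115 genes below (2.36% of 932) and none above, chromosome 9 held 12 below (1.81% of 663) and 2 above, and the X chromosome held 9 below (2.58% of 349) and 1 above. Whole chromosomes also differed between clones. The median difference from the controls was 0.29 in log2 CPM on chromosome 5 in the Wdr60 clone, 0.13 in Wdr34 clone 3 and -0.01 in Wdr34 clone 1, while control D8 had 0.14 there. It was -0.36 on chromosome 1 in control G7, -0.37 on chromosome 2 in Wdr34 clone 3, and 0.25 on chromosome 18 in Wdr34 clone 3. With each library centred on the median of each chromosome, a setting added after these values were seen, 120 genes lay above and 106 below, of which 76 and 60 were the same genes. Chromosome 5 then held 11 above and 4 below, chromosome 1 held 10 and 6, chromosome 2 held 6 and 4, and the X chromosome 5 and 6. The counts were thus still uneven on chromosome 5, as they were on chromosome 9, with 5 above and 13 below, and on chromosome 18, with 7 and 3. Many small differences on chromosome 5, such as Gpn3, Bri3, Triap1, Psmg3 and Eif4h, had log2 fold changes of 0.26 to 0.48 (these genes were picked after their values had been seen). With the centring, Gpn3 and Psmg3 no longer separated, while Bri3, Triap1 and Eif4h still did. These examples do not stand for the chromosome, which held 25 genes above before the centring and 11 after it. At most 11 of the 25 thus kept their separation. Whether clones carry extra or missing chromosomes was not tested.

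**Figure D4:**
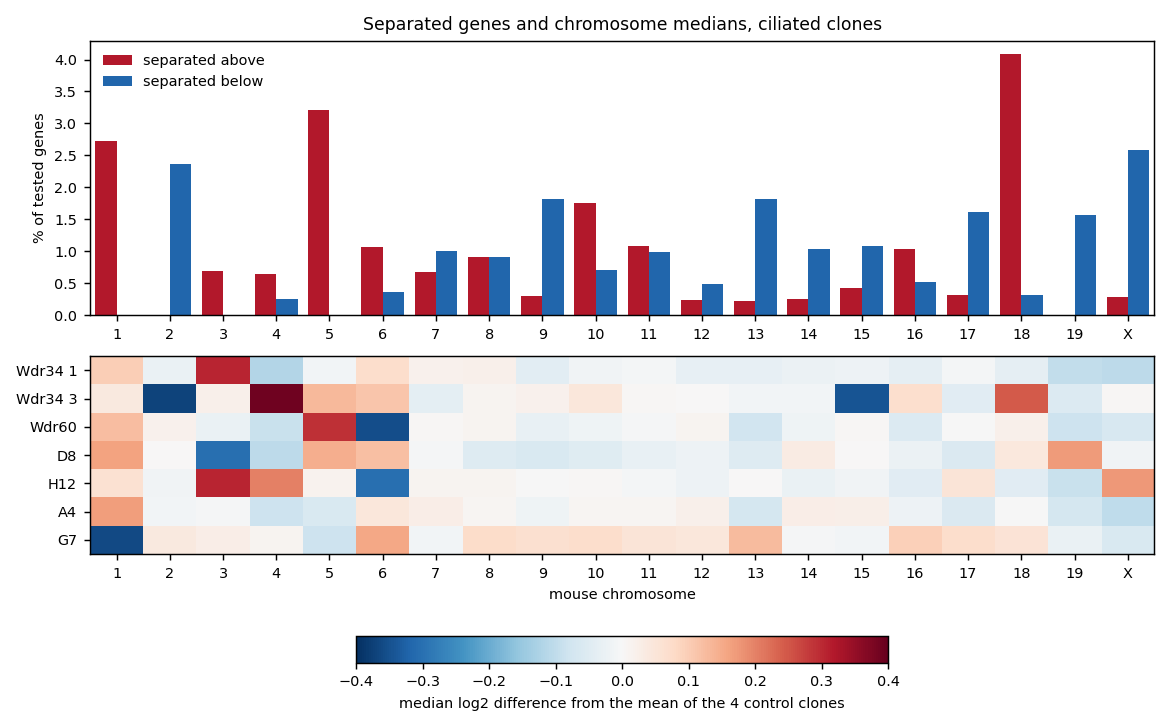
Top, percent of tested genes on each mouse chromosome whose clone means separated above (red) or below (blue); bottom, median log2 difference of each clone from the mean of the 4 control clones, by chromosome. By percent of tested genes, chromosomes 18, 5 and 1 are highest above and chromosomes X and 2 highest below, and 1 or more clones stand out on chromosomes 1 to 6, 15 and 18.

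Transcript length differed between the directions as well. The longest annotated transcript had a median of 2733 bases among genes above, 4168 among genes below and 3373 over all tested genes. Of 541 genes with transcripts of up to 1000 bases, 2.4% lay above and 0.37% below, and of 2675 genes over 5000 bases, 0.523% lay above and 1.53% below. Libraries themselves differed in this respect: the median deviation of short transcripts minus that of long ones was 0.72 and 0.63 in log2 CPM in libraries 3 and 4 of the Wdr60 clone and -0.16 and -0.29 in libraries 1 and 2. It was 0.40 in library 4 of G7 and -0.28 to -0.48 in its other libraries. With a length trend removed from every library, also a setting added later, 126 genes lay above and 105 below, of which 96 and 82 were the same genes, and the median lengths were 3550 and 3488 bases. Separation was then lost by 22 genes above and 33 below, while Arxes2, Ppp1r14c, Rps6ka2 and Dmxl2 kept theirs. The part of RNA quality or library preparation in these differences was not tested.

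**Figure D5:**
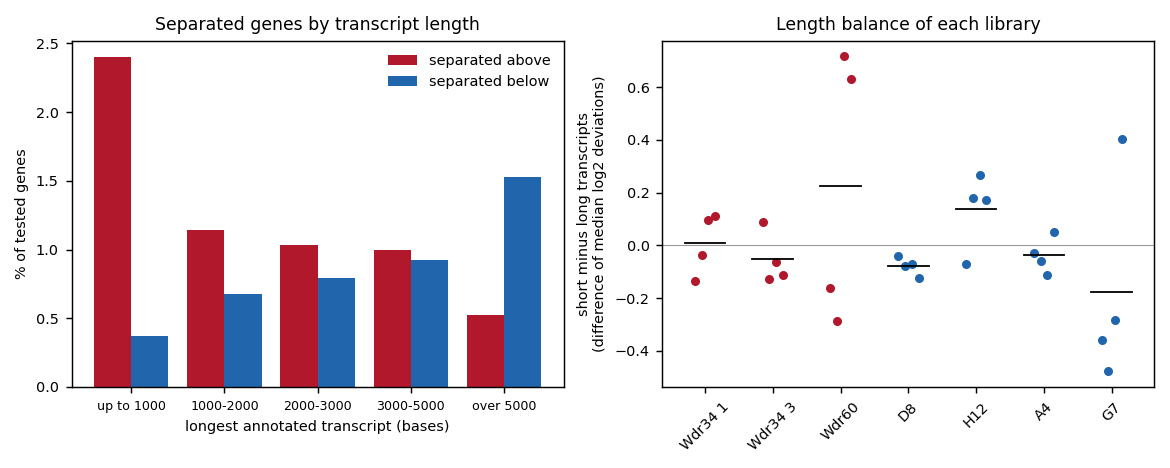
Left, percent of tested genes separated above (red) or below (blue) by length of the longest annotated transcript; right, for each library, the median log2 deviation of genes under 1000 bases minus that of genes over 5000 bases, with bars at clone means. The share above falls and the share below rises with length, and libraries 3 and 4 of the Wdr60 clone and library 4 of G7 stand high.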

How the data were processed

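RNA-seq libraries of ciliated IMCD3 clones were analysed from the deposited raw counts, 1 table of gene symbols per library. The authors mapped paired-end reads to GRCm38 with Rsubread, counted them with featureCounts and tested them with DESeq2 version 1.18.1 in R version 3.4.4, per the labels and the study's methods; strand and the treatment of reads with several matches are not given in the sources used here, so overlapping, antisense and near-identical genes are uncertain. Of 24421 symbols, 24300 matched RefSeq names.

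Genes were kept by filterByExpr, scaled by TMM and tested in edgeR 4.0.16 (R 4.3.3, limma 3.58.1) by the quasi-likelihood test of genotype over libraries, with Benjamini-Hochberg adjustment over all tested genes. The SE is the log2 fold change divided by the root of F. Clone means are means over 4 libraries of log2 CPM with a prior count of 2, and a gene separated where all mutant clone means lay on one side of all control clone means. CPM values printed have no prior count. DESeq2 1.42.0, voomLmFit with clone as a random block, clone sums, other scalings and filters, and fits without a library number or a clone were tried. The scripts were run on simulated counts of independent libraries, with no clone effects and a lower fold limit than in the calls, which says nothing of the spread between clones. No 2 libraries agreed within sampling noise.

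Genes named are those both separated and called, the 8 with the widest gap in each direction, the 2 just inside and the 2 just outside the rule on each side, the targeted genes, separated members of the gene lists, and genes separated the same way and called in non-ciliated cells. The members and the lists were chosen with earlier results of these data known.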

Additional observations from a re-analysis of the deposited data

Results flagged for a closer look

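Some values stood apart within a group of 4. Among 183 groups examined, 12 (6.56%) held such a value, where chance gives about 1 in 20. Library 4 of control G7 held 28084979 counts, far above the other G7 libraries, and its Wdr60 level of 25.9 CPM and Mkrn3 level of 0.107 CPM also stood apart there. Control G7 stood low among the control clone means of Wdr34, at 32.1 CPM. Within G7, 1190005I06Rik was 0 in library 1 and BC039966 was 1.30 CPM in library 2. BC039966 was 0.959 CPM in library 2 of the Wdr60 clone. In H12, library 4 had 2.10 CPM of Lypd6b and 1.02 CPM of Slc41a2. Slc41a2 was 0.0623 CPM in library 3 of D8, where Ust was 4.17 CPM, and Ust was 1.24 CPM in library 3 of A4.

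An edgeR fit of the difference between the states over all 52 libraries marked 4 of 38 named separated genes at an adjusted p under 0.05, where 237 of all 12544 genes (1.89%) were marked. The difference, ciliated minus non-ciliated on the log2 scale, was -0.77 for Rps6ka2, -0.43 for Wdr60, 1.53 for Dkk3 and 2.0 for Hey1. The genes had been chosen by the ciliated contrast that enters this fit, and Wdr34 clone 3 was matched by no non-ciliated clone, so nothing is read from these marks and the differences are a description.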

How the results depend on the processing

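The counts of 50 genes called higher and 27 lower moved with most settings. DESeq2 called 63 lower. A filter of at least 1 count in any library gave 230 higher and 63 lower, and at least 10 counts in every library gave 15 and 8. Clone sums gave 0 and 0, voomLmFit with clone as a random block 5 and 2, and no fold limit 189 and 190. Leaving out 1 library number gave 17 to 24 higher and 5 to 7 lower. Leaving out 1 clone gave 31 to 146 higher (123 without Wdr34 clone 1, 107 without Wdr60, 112 without H12, 31 without A4, 146 without G7) and 16 to 197 lower (112 if Wdr34 clone 3 was dropped, 66 if Wdr60, 16 if D8, 103 if H12, 197 if G7). Library numbers did not pair the samples: over 84 pairs of the same number in different clones the median correlation was 0.01, and 20 were over 0.1. With the replicate block 35 were called higher and 17 lower, all 52 among those called without it. Of the 20 genes called and separated, 13 to 15 stayed called without a library number, 5 under voomLmFit (Adcy1, Dtna, Kcnh2, Ppp1r14c and Ust) and 0 on clone sums. The cause was not tested.

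Separated genes numbered 159 above and 67 below with the library total alone, against 118 and 115, and 198 above and 180 below with at least 1 count in any library. Leaving out 1 library number gave 99 to 127 above, 109 to 161 below and 38 to 63 genes separated the same way in non-ciliated cells, against 55 with all. Of the 118 and 115 genes, 80 to 94 and 78 to 87 were then still separated, and 75 and 79 without libraries 3 and 4 of the Wdr60 clone (96 and 116 in all). The log2 fold change of Wdr34 ran from -0.26 to 0.24 when 1 clone was left out, and it reversed to 0.24 without Wdr34 clone 3. Over the other values of named genes, 773 kept direction and side of the threshold, 78 no longer passed and 13 newly passed. Depth limits Lypd6b and B930041F14Rik, with at most 6 and 3 counts in a mutant library.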

Other observations

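Several called genes of the lists did not separate, since the 3 mutant clone means did not all lie beyond the controls on one side. Among matrix genes, Col16a1, Col6a1, Eln (elastin) and Serpinb5 had log2 fold changes of 1.21 ± 0.26, 2.77 ± 0.66, 2.90 ± 0.63 and 2.40 ± 0.64. The regulators of G protein signalling Rgs2 and Rgs9 had 1.64 ± 0.43 and 2.24 ± 0.55. Of 16 genes for VEGF family and angiogenic ligands, Fgf1 and Figf (VEGF-D) were called higher (12.5%, where 0.418% of all tested genes were), at 1.08 ± 0.29 and 1.92 ± 0.33. Vegfa of the same list had -0.999 ± 0.29 (adjusted p = 0.049, edgeR), just short of the fold limit. The Wnt receptor Fzd8 had 3.15 ± 0.61 and the Notch ligand Dll4 had -2.70 ± 0.60.

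For Rgs2 the non-ciliated log2 fold change was 1.74, close to the value in ciliated cells. Cldn2, a claudin of leaky tight junctions, had 1.19 in ciliated and -2.13 in non-ciliated cells, and Col6a1 had 2.77 and -1.47. These genes were picked from the called list members after their values had been seen, so the differences between states are a description and no test is read. Wdr34 clone 3 was matched by no non-ciliated clone, so the mutant groups of the states also differ in their clones.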
